A study of Mus musculus with 4 samples.

Results

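Top2a, Ect2 and Hmgb2 are genes of the cell division programme, and they made up 3 of the 383 genes imaged by MERFISH in coronal brain sections of young and aged mice. They were chosen by name, and their transcripts were followed over cell classes, over positions in the section and from 2 to 18 months of age. MERFISH decodes single RNA molecules in place, so that every segmented cell has a position, a volume and a count of each gene. The series held 4 sections of 10 µm through both striata, 2 of mice aged 2 months and 2 of mice aged 18 months, here called young 1, young 2, aged 1 and aged 2. No agent, transgene or other genotype is named in their labels, and the study's methods name C57BL/6NTac mice. The labels do not say that sections of an age came from separate mice, so p-values measure the spread between these sections.

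Dividing cells copy their chromosomes, separate them and then part in cytokinesis. Top2a encodes topoisomerase II alpha, the enzyme that untangles sister chromatids, and is made mainly from S phase to mitosis. Ect2 encodes a guanine nucleotide exchange factor that activates RhoA at the cleavage furrow. Hmgb2 encodes a chromatin protein that bends DNA, is abundant in proliferating precursors and is also present in cells that do not divide. In the adult forebrain, most dividing cells are progenitors and neuroblasts of the ventricular-subventricular zone, which lies in the wall of the lateral ventricle beside the ependyma and the striatum. Oligodendrocyte precursors divide throughout grey and white matter. Medium spiny neurons, the main neurons of the striatum, and mature oligodendrocytes do not divide.

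On GRCm38 (GENCODE annotation), Top2a lies on chromosome 11 from 98992943 to 99024189 on the minus strand. Ect2 lies on chromosome 3 from 27097222 to 27153878 on the minus strand. Hmgb2 lies on chromosome 8 from 57511907 to 57515999 on the plus strand. All 3 are protein-coding. Because transcripts of the 3 genes were found together in the same cells, the 250 bases before each RefSeq start (GRCm38.p6) are shown 5′ to 3′ in the direction of transcription. Capitals mark 2 motifs known from promoters of cell cycle genes, the CCAAT box (CCAAT or its reverse complement ATTGG) and the cell cycle homology region (TTTGAA or TTCAAA).
Top2a, chr11:99024190-99024439, minus strand: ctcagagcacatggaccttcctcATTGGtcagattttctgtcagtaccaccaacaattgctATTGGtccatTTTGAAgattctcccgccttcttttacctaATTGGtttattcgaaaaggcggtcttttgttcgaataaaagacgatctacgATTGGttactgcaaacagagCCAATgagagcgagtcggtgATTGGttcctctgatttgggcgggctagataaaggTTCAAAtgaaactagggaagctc
Ect2, chr3:27153879-27154128, minus strand: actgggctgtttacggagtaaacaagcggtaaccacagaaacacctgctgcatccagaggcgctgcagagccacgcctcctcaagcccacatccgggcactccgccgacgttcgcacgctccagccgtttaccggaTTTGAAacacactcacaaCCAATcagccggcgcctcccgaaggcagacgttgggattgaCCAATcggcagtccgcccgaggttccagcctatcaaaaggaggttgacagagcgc
Hmgb2, chr8:57511593-57511842, plus strand: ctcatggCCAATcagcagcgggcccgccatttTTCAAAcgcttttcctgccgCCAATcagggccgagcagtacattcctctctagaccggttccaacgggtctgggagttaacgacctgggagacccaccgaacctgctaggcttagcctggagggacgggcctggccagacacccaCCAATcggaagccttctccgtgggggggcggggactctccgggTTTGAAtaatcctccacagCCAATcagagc
The Top2a window held 6 CCAAT boxes and 2 copies of the TTTGAA motif, the Ect2 window 2 and 1, and the Hmgb2 window 4 and 2. No matches overlapped. Among 32851 promoter windows of this length, 33.8% held a CCAAT box, 16.0% held TTTGAA and 5.55% held both. RefSeq lists another Ect2 start, whose window (chr3:27153855-27154104) overlaps the one shown and held 3 CCAAT boxes and 1 copy of TTTGAA. The window shown is the one that adjoins the GENCODE gene. A match of letters is a description of the window and not a measured site.

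Filtering on detected genes and volume kept between 68011 and 74624 cells per section, 281824 of 320663 segmented cells in all. Kept cells held 36035355 transcripts in young 1, 31172121 in young 2, 18765491 in aged 1 and 29004185 in aged 2. The median kept cell held 400, 325, 215 and 293 transcripts in the same order, so aged 1 was the shallowest section. No cell barcode was shared between sections. Levels are given as transcripts of a gene per 10000 transcripts of all 383 genes in the same cells. Cell classes were rebuilt by clustering without the 3 genes, 10 other cell cycle genes and 4 cell cycle inhibitors, and carry the ending "-like" where markers named them. Cells of 4 clusters, numbered 10, 11, 12 and 20, stayed unnamed, and cluster 20 had 776 of its 883 cells in young 1.

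Top2a was concentrated in neuroblast-like cells, a class of 567, 602, 148 and 182 cells in young 1, young 2, aged 1 and aged 2. This class was named from the markers of neuroblasts, young migrating neurons (Dcx, Sox11, Sox4, Dlx6os1 and Marcksl1). Their summed level was 1111, 1357, 1141 and 1281 per 10000 other transcripts in the class. It was 76.5 to 231 in ependymal-like and 53.0 to 61.0 in medium spiny neuron-like cells. The Top2a level of neuroblast-like cells was 146 and 149 per 10000 in the young and 71.4 and 54.3 in the aged sections. Ependymal-like cells, which line the ventricle, followed with 23.9 and 17.6 in the young and 5.95 and 11.99 in the aged sections. Oligodendrocyte precursor-like cells held 8.97 and 8.30, then 4.51 and 1.61. This order of the first 3 named classes was the same in each of the 4 sections. Below them the ranges over sections overlapped, with 0.888 to 2.12 in astrocyte-like, 0.968 to 1.86 in microglia-like and 0.501 to 2.08 in oligodendrocyte-like cells. The astrocyte-like class was not uniform. Its cluster 13, of 9210 cells with a median of 47 transcripts and led by Thbs4 and Gja1, held Top2a at 6.54 averaged over sections. Its clusters 5 and 17a held 1.10 and 1.27, and the oligodendrocyte precursor-like cluster 14 held 5.85. Medium spiny neuron-like cells, used as the level of a class that does not divide, held 0.643 to 0.800, and neuron-like cells were lowest of the named classes with 0.285 to 0.429.

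Neuroblast-like cells were small, with a median of 98.5 to 131 transcripts against 258 to 590 in medium spiny neuron-like cells. Shares of positive cells were therefore compared after every cell was thinned to 100 transcripts, which left out shallower cells and kept 74 to 354 neuroblast-like cells per section. After thinning, 38.0% and 41.5% of the neuroblast-like cells in the young and 21.6% and 25.3% in the aged sections held Top2a. Unthinned, these shares were 36.0%, 38.0%, 18.2% and 18.7%. In medium spiny neuron-like cells the thinned shares were 0.662% to 0.841%, and the unthinned shares 1.88% to 4.49%. Averaged over the 4 sections, the Top2a level of neuroblast-like cells was 148 times that of medium spiny neuron-like cells.

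Among the named classes, Ect2 and Hmgb2 were also highest in neuroblast-like cells in every section. The Ect2 level of neuroblast-like cells was 39.1 and 37.6 per 10000 in the young and 16.8 and 12.5 in the aged sections. The other named classes lay between 1.08 and 8.21 for Ect2, with ependymal-like (3.30 to 8.21), oligodendrocyte precursor-like (3.78 to 6.61), medium spiny neuron-like (2.22 to 4.94) and neuron-like cells (3.21 to 4.59) overlapping one another. Mural-like cells, of the vessel wall, were at 1.08 to 2.20. The Hmgb2 level of neuroblast-like cells was 11.7 and 12.3 in the young and 8.93 and 4.65 in the aged sections. In the other named classes Hmgb2 lay between 1.06 and 4.94, with ranges over sections that overlapped. In 8 of the 10 named classes Hmgb2 was highest in aged 1, the shallowest section, as in microglia-like cells with 1.62, 1.83, 4.94 and 1.73. Of the unnamed clusters, 10, 11 and 12 held 1.29 to 4.89 of Ect2 and up to 2.65 of Hmgb2. Cluster 20, led by Cxcl1, Gpr6 and Mmp13, held Top2a at 2.24, Ect2 at 10.4 and Hmgb2 at 5.05 in young 1. In aged 1, where it had 8 cells with 944 transcripts, these levels were 95.3, 21.2 and 21.2, from 9, 2 and 2 transcripts, and all lay above those of neuroblast-like cells. In aged 2, with 96 cells, Ect2 was at 13.8 from 15 transcripts, above the 12.5 of neuroblast-like cells. Averaged over sections, neuroblast-like cells held 7.13 times the Ect2 level and 7.28 times the Hmgb2 level of medium spiny neuron-like cells.

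**Figure D1:**
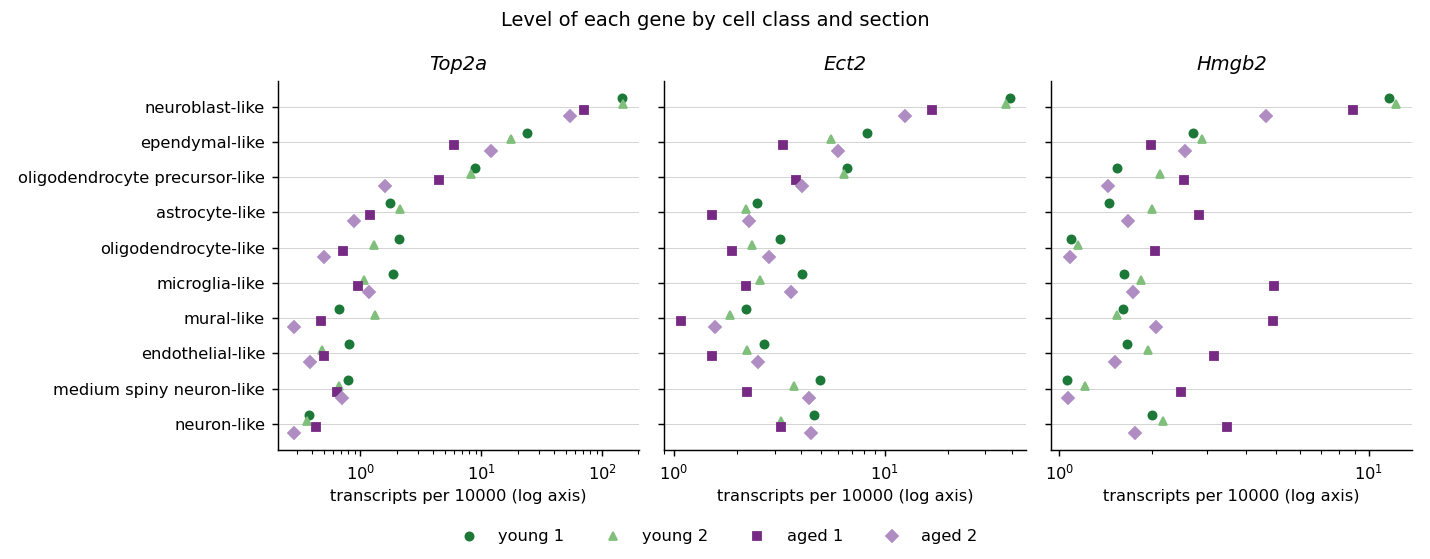
Transcripts of Top2a, Ect2 and Hmgb2 per 10000 transcripts of all genes (log axis) in the 10 named cell classes, with a point for each section. Neuroblast-like cells lie highest for each gene in all 4 sections, and the aged 1 squares lie to the right for Hmgb2 in most other classes.

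Neuroblast-like cells were few, so the 3 genes differed in where most of their transcripts lay. These cells gave 0.0964% to 0.351% of all transcripts. They held 29.3% and 35.0% of the Top2a transcripts of the young sections and 9.10% and 8.61% of those of the aged sections. They held 2.81% and 4.06% of Ect2 in the young and 0.686% and 0.312% in the aged sections, and 0.306% to 2.37% of Hmgb2. Neuron-like cells held 40.5% to 49.2% of Ect2 and 45.1% to 54.0% of Hmgb2, while they gave 38.0% to 45.5% of all transcripts. Medium spiny neuron-like cells held a further 18.8% to 31.3% of Ect2 and 13.5% to 18.8% of Hmgb2. They gave 19.9% to 28.1% of all transcripts. Neurons, which do not divide, thus gave most of the section sums of both genes, as they did of all transcripts. Of cells with at least 3 Hmgb2 transcripts, 32 of 52, 35 of 58, 28 of 40 and 9 of 14 were neuron-like. These counts were not thinned, and deeper cells reach 3 transcripts more easily. The neuron-like clusters 1, 2 and 6 had medians of 730, 526 and 220 transcripts per cell.

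Cells with at least 5 Top2a transcripts, here called Top2a-high, numbered 230 in young 1, 229 in young 2, 42 in aged 1 and 45 in aged 2. Neuroblast-like cells made up 103, 110, 7 and 11 of them, and oligodendrocyte precursor-like cells 44, 44, 14 and 7. Oligodendrocyte-like cells gave 34, 15, 6 and 4, astrocyte-like cells 12, 20, 6 and 6, and ependymal-like cells 10, 6, 2 and 3. Among neuroblast-like cells, 18.2% and 18.3% were Top2a-high in the young and 4.73% and 6.04% in the aged sections. Among oligodendrocyte precursor-like cells the shares were 1.95%, 1.85%, 0.766% and 0.346%. In medium spiny neuron-like cells they were 0.0373%, 0.0225%, 0 of 13070 cells and 0.00724%. The count of 0 allows a share of up to 0.023%, for counting error alone.

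Most Top2a-high cells of the young sections lay in thin bands beside both striata. The neuroblast-rich zone, in which at least 10% of the cells within 100 µm were neuroblast-like, covered 0.928 and 0.915 mm² in the young and 0.230 and 0.280 mm² in the aged sections. It held 150 of 230 and 155 of 229 Top2a-high cells in the young, and 14 of 42 and 7 of 45 in the aged sections. White matter, where at least 40% of near cells were oligodendrocyte-like, held 31, 18, 5 and 10. Striatum, where at least 40% were medium spiny neuron-like, held 12, 7, 0 and 4. The remaining tissue held 37, 49, 23 and 24.

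**Figure D2:**
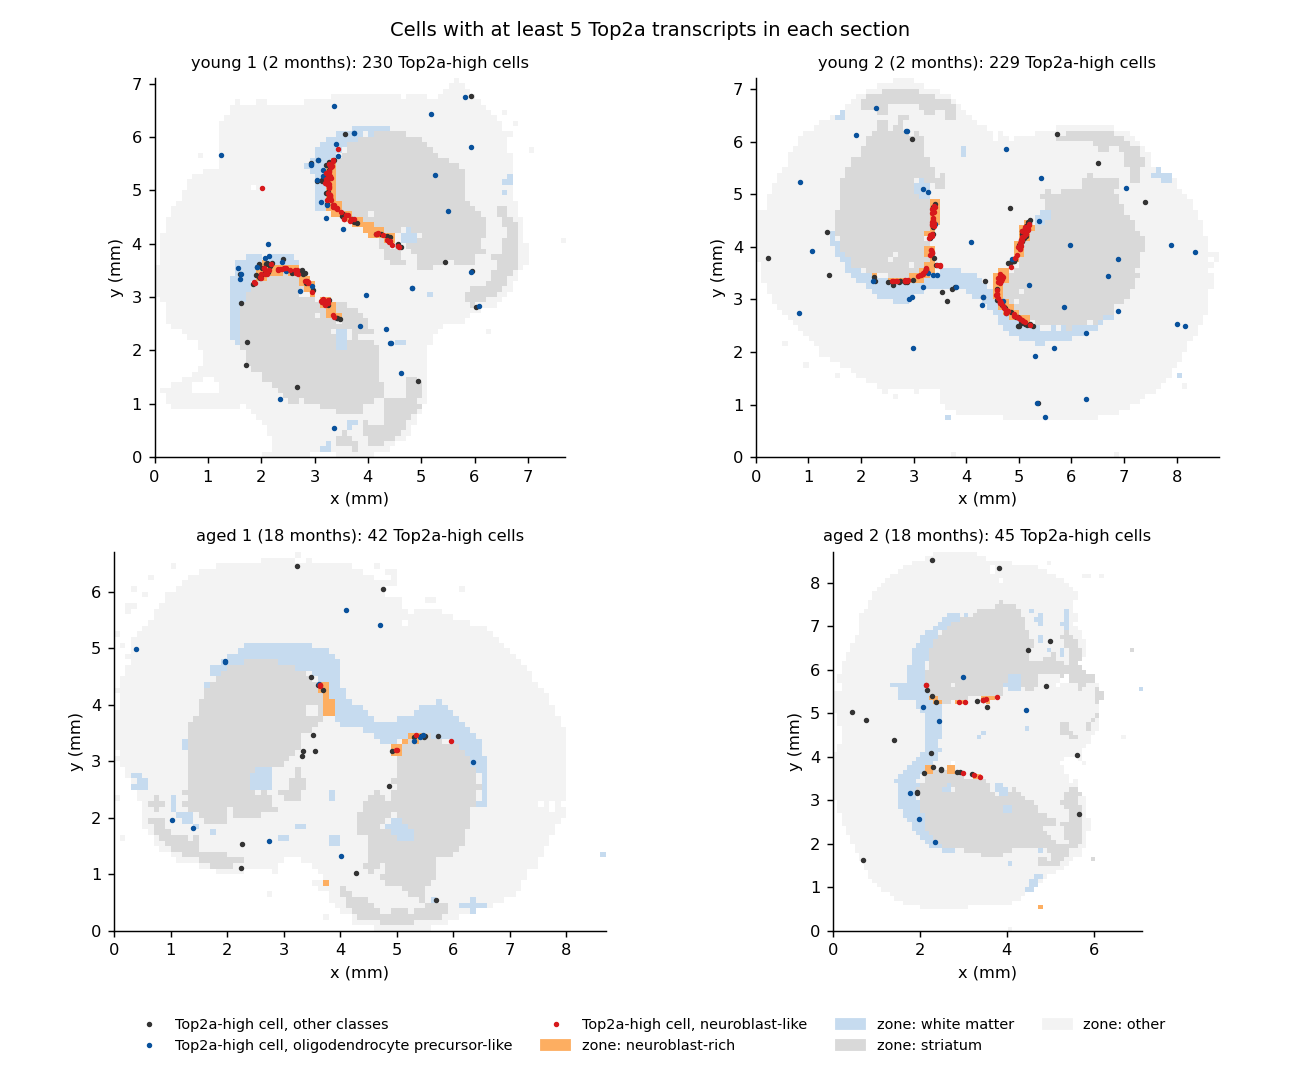
Position in mm of the Top2a-high cells of each section (points coloured by class) over squares of 50 µm coloured by zone. In the young sections red points of neuroblast-like cells trace the orange neuroblast-rich zone beside both striata, and the aged sections hold 42 and 45 points against 230 and 229.

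The level of all 3 genes was highest beside the ependymal-like cells and lower from 50 to 100 µm in every section. Within 50 µm of an ependymal-like cell that had others near it, the Top2a level was 36.8 and 46.8 per 10000 in the young and 7.25 and 12.6 in the aged sections. From 50 to 100 µm it was 5.93, 8.40, 1.70 and 1.91, and beyond 500 µm it was 1.11, 0.771, 0.642 and 0.482. Ect2 was 11.5 and 12.5 within 50 µm in the young and 4.27 and 5.35 in the aged sections, against 3.14 to 4.32 and 2.51 to 3.92 beyond 500 µm. Hmgb2 was 3.56 and 5.52 within 50 µm in the young and 3.13 and 2.44 in the aged sections, and in aged 1 it was 2.98 beyond 500 µm. Single Top2a-high cells were nevertheless found far from the ventricle, with 112, 70, 19 and 18 of them beyond 500 µm.

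**Figure D3:**
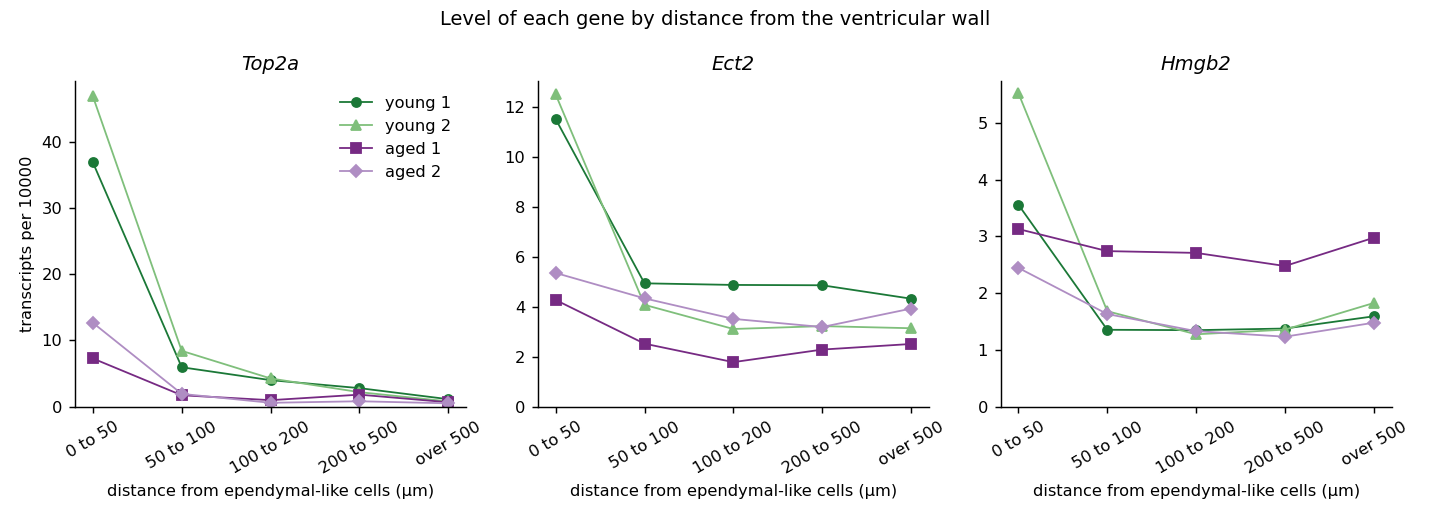
Transcripts of each gene per 10000 in bands of distance (µm) from ependymal-like cells, with a line for each section. All lines lie lower after the first 50 µm, and the aged lines start at 7.25 and 12.6 for Top2a against 36.8 and 46.8 in the young sections.

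Within single cells the 3 genes were found together. In cells with 0 Top2a transcripts, Ect2 made up 4.14, 2.96, 2.40 and 3.79 per 10000 of the other transcripts in young 1, young 2, aged 1 and aged 2. In cells with at least 10 Top2a transcripts it made up 98.8, 107, 191 and 125. Hmgb2 made up 1.53, 1.74, 2.91 and 1.46 at 0 Top2a transcripts and 19.0, 20.9, 27.6 and 17.8 at 10 or more. Cells with 1 or 2 Top2a transcripts lay near the cells with 0, with 3.14 to 5.47 for Ect2 and 1.32 to 3.07 for Hmgb2. Cells with 3 or 4 Top2a transcripts, just below the limit, already held Ect2 at 13.8 to 50.6, and those with 5 to 9 held it at 34.1 to 48.1. After thinning to 100 transcripts, 66.7%, 67.3%, 81.8% and 66.7% of the cells with at least 10 Top2a transcripts held Ect2, against 2.15% to 3.72% of the cells with 0. The aged groups with at least 10 were small, with 11 and 18 cells.

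**Figure D4:**
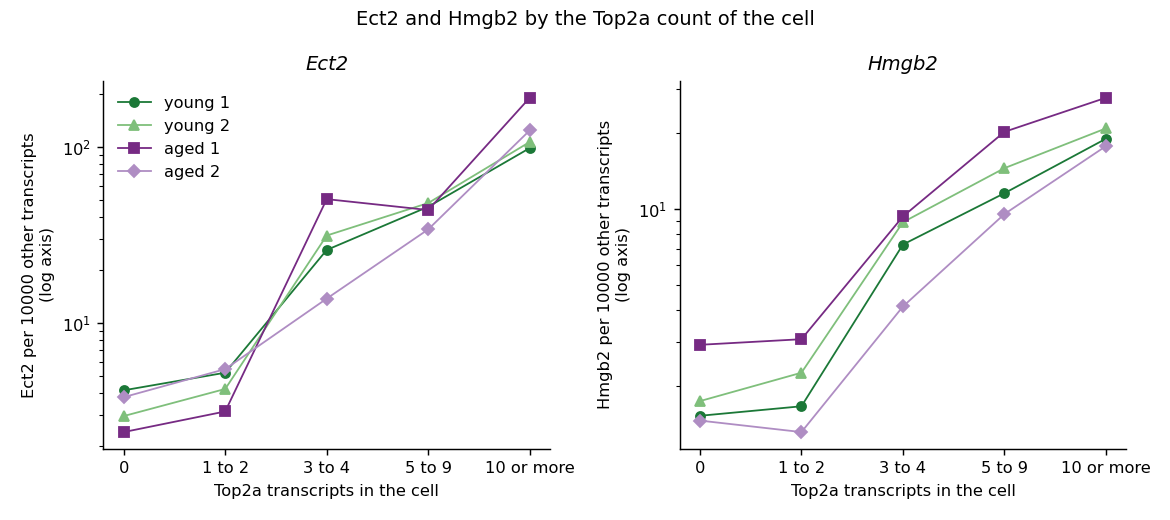
Ect2 and Hmgb2 per 10000 other transcripts (log axes) in cells grouped by their Top2a count, with a line for each section. Cells with 1 to 2 Top2a transcripts lie close to those with 0, and both genes are higher from 3 transcripts on, with 98.8 to 191 for Ect2 and 17.8 to 27.6 for Hmgb2 at 10 or more.

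Of the Top2a-high cells, 86.5% and 82.97% held at least 1 Ect2 transcript in the young and 71.4% and 75.6% in the aged sections. Hmgb2 was present in 48.3%, 47.2%, 45.2% and 35.6% of them, and both genes in 43.5%, 42.8%, 33.3% and 24.4%. Neither gene was found in 8.70% to 16.7%. In the remaining cells Ect2 was present in 6.12% to 17.7% and Hmgb2 in 5.30% to 7.49%. Cells with at least 5 Ect2 transcripts numbered 87, 59, 10 and 18, of which 59, 50, 8 and 6 were Top2a-high. These are 67.8%, 84.7%, 80.0% and 33.3% of the Ect2-rich cells, and 25.7%, 21.8%, 19.0% and 13.3% of the Top2a-high cells. The median depth of Top2a-high cells against other cells was 368 against 400, 323 against 325, 314 against 215 and 269 against 293 transcripts. Among neuroblast-like cells it was 333 against 107, 308 against 102, 74 against 100 and 194 against 108, so unthinned shares of positive cells compare unequal depths.

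The joint presence held in both classes that gave most Top2a-high cells. Among neuroblast-like cells, Ect2 was at 5.19, 5.11, 1.49 and 3.91 per 10000 other transcripts at 0 Top2a transcripts and at 116, 95.4, 204 and 121 at 10 or more. Among oligodendrocyte precursor-like cells it was at 3.87, 3.37, 2.23 and 3.38 and at 140, 159, 220 and 446. The last of these values came from 2 cells, as did the 204 in neuroblast-like cells of aged 1. The markers that named the oligodendrocyte precursor-like class were Pdgfra, Gpr17, C1ql1, Olig1, Tnr and Ptprz1. Their sum per 10000 other transcripts was 1617, 1530, 1643 and 1467 in its Top2a-high cells. In the rest of the class it was 1293, 1263, 1354 and 1155. Top2a-high oligodendrocyte precursor-like cells lay at a median of 730 to 1570 µm from the nearest ependymal-like cell. Top2a-high neuroblast-like cells lay at a median of 263, 33.8, 346 and 12.6 µm.

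Neuroblast-like cells came from a pair of subclusters. The one with the higher share of progenitor markers, led by Thbs4 and Sox11, held 192, 167, 37 and 47 cells with Top2a at 162, 162, 99.3 and 74.7 per 10000. The other, led by Sox4 and Sox11, held 375, 435, 111 and 135 cells with Top2a at 119, 133, 42.7 and 32.6.

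Top2a-high cells lay near one another. Another Top2a-high cell lay within 20 µm of 47.8% and 43.7% of them in the young and of 31.0% and 15.6% in the aged sections, against 0.900%, 0.987%, 0.136% and 0.181% of all other cells. Among neuroblast-like cells the shares were 54.4%, 56.4%, 71.4% and 36.4% for Top2a-high cells and 29.5%, 45.1%, 10.6% and 15.2% for the others, from only 7 and 11 Top2a-high cells in the aged sections. Among the sparser oligodendrocyte precursor-like cells they were 31.8%, 11.4%, 28.6% and 0 of 7 for Top2a-high cells, against 0.542%, 0.601%, 0 of 1813 and 0.0495% for the others. The counts of 0 allow shares of up to 42.9% and 0.165%, for counting error alone. Some pairs had nearly the same centre. In young 1, a neuron-like cell lay at x 5943 and y 3483 µm and an oligodendrocyte precursor-like cell at 5942 and 3479 µm. Whether cell outlines split or shared the transcripts of 1 cell was not tested, so these shares may count such pairs.

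Other panel genes followed the 3 genes over clusters, and some also differed between Top2a-high and other cells. Over the means of 24 clusters, which shared sections and depth, the log2 level of Top2a correlated best with Hmgb3 (r = 0.935), a chromatin protein of the family of Hmgb2. It was followed by Ppp1r14b, Sox4, H2afz, a histone variant, and Mdk, a growth factor. Ect2 correlated best with Hmgb3 (0.892), H2afz, Mdk, Hmgb2 (0.846) and Top2a (0.837). Hmgb2 correlated best with H2afz (0.900), Mdk, Ect2, Ppp1r14b and Hmgb3. Cluster 20 entered with section means of 24.9 for Top2a, 25.1 for Ect2 and 6.79 for Hmgb2. It had only 3 cells in young 2 and 8 in aged 1, and the correlations were not computed without it. Between Top2a-high and other cells the largest mean log2 ratio was that of Ect2 (4.57 ± 0.45, SD, n = 4 sections). Next came Thbs4 (4.14), Egfr (4.14), the receptor that marks activated progenitors, Sox11 (3.86), Pdgfra (3.52), the growth factor receptor of oligodendrocyte precursors, and Ccnd2 (3.36), a cyclin of G1 phase. Sox4 (3.17), Hmgb2 (3.15 ± 0.19), H2afv (2.75) and Ptprz1 (2.75) completed the first 10 of 382 genes. This ranking also holds differences between classes. Within neuroblast-like cells Ect2, Hmgb2 and Egfr (2.22) stayed in the first 10. Thbs4, Sox11, Pdgfra, Ccnd2 (0.94), Sox4, H2afv (1.11) and Ptprz1 did not. Within oligodendrocyte precursor-like cells Ect2, Hmgb2, H2afv (2.12), Thbs4 (1.99) and Sox11 (1.57) stayed. Egfr, Pdgfra, Ccnd2 (1.13), Sox4 and Ptprz1 did not. Egfr was at -0.51 and -0.57 there in the young and 3.59 and 1.60 in the aged sections.

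Whether the 3 genes changed between 2 and 18 months was tested on counts summed over each section with edgeR's quasi-likelihood test, adjusted by the Benjamini-Hochberg method over all genes tested. The Top2a level of the whole section was 1.59 and 1.49 per 10000 in the young and 0.796 and 0.609 in the aged sections. The groups did not overlap, and Top2a was lower in aged sections by 2.13-fold (log2 change -1.09, SE 0.26, edgeR adjusted p = 0.0468). It was the only one of the 3 genes called, where 1.31% of the 383 genes were called in either direction and 0.261% as lower. The call was lost with total counts in place of TMM normalization, with volume scaling, with a replicate block and without each section in turn (edgeR adjusted p 0.0927 to 0.764 over the 4 fits without a section). In a sum over tissue, fewer cells of a type and less RNA per cell cannot be told apart.

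Ect2 was at 4.43, 3.25, 2.49 and 3.87 per 10000 of the whole section, with overlapping ages (log2 change -0.23, SE 0.24, edgeR adjusted p = 0.887). Hmgb2 was at 1.58, 1.81, 2.93 and 1.46, high in aged 1 alone (log2 change 0.41, SE 0.28, edgeR adjusted p = 0.812). Without aged 1 the Hmgb2 estimate was -0.20 and that of Ect2 0.029.

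Top2a-high cells had a density of 6.78 and 5.72 per mm² in the young and 1.12 and 1.16 per mm² in the aged sections. The log2 change was -2.46, and the exact two-sided permutation test gave p = 0.333, the smallest that 2 sections against 2 allow. With cells thinned to 100 transcripts the log2 change was -2.50, and with mixed cells left out, which hold at least 3 markers of their own and of another class, it was -2.08. Mixed cells were 75.7%, 69.0%, 69.0% and 60.0% of the Top2a-high cells and 56.8%, 50.3%, 42.6% and 50.6% of the others. The density within 100 µm of ependymal-like cells was 103 and 136 per mm² in the young and 10.5 and 22.1 in the aged sections, and beyond that distance it was 4.99, 3.02, 0.947 and 0.730.

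Among the places tested, Top2a fell at the ventricle and in white matter. At the ventricular wall, taken as all cells within 100 µm of ependymal-like cells (1579, 2054, 1427 and 1773 cells), Top2a was at 21.7 and 27.8 per 10000 in the young and 4.53 and 7.30 in the aged sections. It fell by 2.08 on the log2 scale (SE 0.28, edgeR adjusted p = 6.1e-10), and Ect2, at 8.29, 8.34, 3.41 and 4.84, fell by 1.02 (SE 0.30, edgeR adjusted p = 0.0202). These were 2 of the 3 genes, where 4.7% of all genes were called. Hmgb2 was at 2.48, 3.63, 2.94 and 2.04, with overlapping ages (edgeR adjusted p = 0.709). Neuroblast-like cells were 314, 402, 67 and 129 of the cells at the wall, and their part in the decrease was not tested. Without aged 1 the Top2a change was -1.78 (edgeR adjusted p = 0.0697). The Ect2 call was lost without each section in turn (0.118 to 0.630) and with a replicate block (0.0664).

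In the neuroblast-rich zone, which was itself smaller in the aged sections (2371, 2341, 422 and 608 cells), no gene of the 3 passed with edgeR, DESeq2 or limma, 2 of them had an unadjusted p under 0.05 with edgeR, and 0.261% of all genes passed. Top2a was at 34.8 and 34.5 in the young and 24.0 and 8.50 in the aged sections (log2 change -1.11, SE 0.41, edgeR adjusted p = 0.494). Ect2 was at 11.2, 10.2, 6.66 and 5.37 (log2 change -0.83, SE 0.30, edgeR adjusted p = 0.494), and Hmgb2 at 3.21, 3.76, 3.51 and 2.31. For Top2a and Ect2 the ages did not overlap. The aged sections differed from each other in Top2a, and without aged 1 its change was -1.99 (edgeR adjusted p = 8.5e-08), without aged 2 -0.56.

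White matter covered 1.84 and 2.16 mm² in the young and 3.48 and 3.55 mm² in the aged sections, with 3036, 3147, 4995 and 5360 cells. In it Top2a was at 5.99 and 3.796 in the young and 1.29 and 1.07 in the aged sections and fell by 2.02 on the log2 scale (SE 0.28, edgeR adjusted p = 0.00072), where 2.87% of genes were called. Without aged 1 the change was -2.23 (edgeR adjusted p = 0.466). Ect2 (3.52, 2.57, 1.71 and 2.23) and Hmgb2 (1.34, 1.12, 2.16 and 1.11) did not pass there. In striatum Top2a was at 0.840, 0.666, 0.601 and 0.725, with overlapping ages (edgeR adjusted p = 0.918).

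Top2a and Ect2 fell in neuroblast-like cells, which were tested although the aged sections held fewer than 200 of them. Top2a fell by 1.29 (SE 0.23, edgeR adjusted p = 0.0234) and Ect2 by 1.46 (SE 0.24, edgeR adjusted p = 0.0209) on the log2 scale, from the levels given above. These were 2 of the 3 genes, against 2.09% of the 287 genes tested in the class, 1.39% of them as lower. Hmgb2 had a log2 change of -0.92 (SE 0.39, edgeR adjusted p = 0.350), with no overlap between the ages. Without aged 2 neither call held (both 0.227), and limma gave 0.106 for both genes.

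In oligodendrocyte precursor-like cells Top2a had a log2 change of -1.52 (SE 0.35, edgeR adjusted p = 0.0581), where 0.522% of genes were called. All 4 fits that left out a section, and the fit with a replicate block (-1.66, edgeR adjusted p = 0.0252), passed the threshold, and without aged 1 the change was -2.45. Outside the neuroblast-rich zone these cells held Top2a at 8.76, 7.997, 4.08 and 1.61, and it fell by 1.58 there (SE 0.25, edgeR adjusted p = 2.3e-07), where 2.09% of genes were called. Of 11 alternative fits 9 called it (adjusted p from 9.8e-12 to 0.430 by edgeR, DESeq2 or limma), and the call was lost with total counts in place of TMM (-1.58, edgeR adjusted p = 0.0846) and with the crossed pairing. Ect2 in the whole class was at 6.61, 6.43, 3.78 and 4.07, with a log2 change of -0.74 (edgeR adjusted p = 0.205). Hmgb2 had overlapping ages.

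Top2a also fell in a pair of other classes. In ependymal-like cells (225, 269, 203 and 236 cells) it fell by 1.21 on the log2 scale (SE 0.30, edgeR adjusted p = 0.0239), where 7.17% of 279 genes were called and 3.94% as lower. Without aged 1 it changed by -0.86 (edgeR adjusted p = 0.0621). The summed neuroblast markers of this class moved along, with 218, 231, 76.5 and 109 per 10000, and their part was not tested. In oligodendrocyte-like cells Top2a was at 2.08, 1.30, 0.725 and 0.501 and fell by 1.42 (SE 0.30, edgeR adjusted p = 0.0003), where 2.87% of genes were called. This call was lost without mixed cells (-1.11, edgeR adjusted p = 0.133), without young 1 (0.232) and without aged 1 (0.168). The Top2a-high cells of that class carried neuroblast markers at 210, 280, 111 and 133 per 10000 against 28.9 to 37.2 in the rest of the class.

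In the other classes of at least 200 cells per section, Top2a did not pass. In astrocyte-like cells it was at 1.77, 2.12, 1.21 and 0.888 (log2 change -0.86, edgeR adjusted p = 0.261), and it was called there once mixed cells were left out (-1.60, edgeR adjusted p = 0.00164). In medium spiny neuron-like and neuron-like cells the log2 changes were -0.07 and -0.02. In mural-like cells, with few Top2a transcripts, its log2 change was -1.39 (edgeR unadjusted p under 0.05). That was the lowest estimate of the 376 genes tested in mural-like cells. Over these 9 classes Top2a passed in 2, Ect2 in 0 (unadjusted p under 0.05 in oligodendrocyte precursor-like cells alone) and Hmgb2 in 1. The last were mural-like cells with 1.61, 1.54, 4.90 and 2.05, a log2 change of 1.17 (SE 0.31, edgeR adjusted p = 0.0142), where 1.6% of 376 genes were called and 0.798% as lower. The high value was that of aged 1, without which the change was 0.37 (edgeR adjusted p = 0.800), and the call was lost without each section in turn (0.344 to 0.800).

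**Figure D5:**
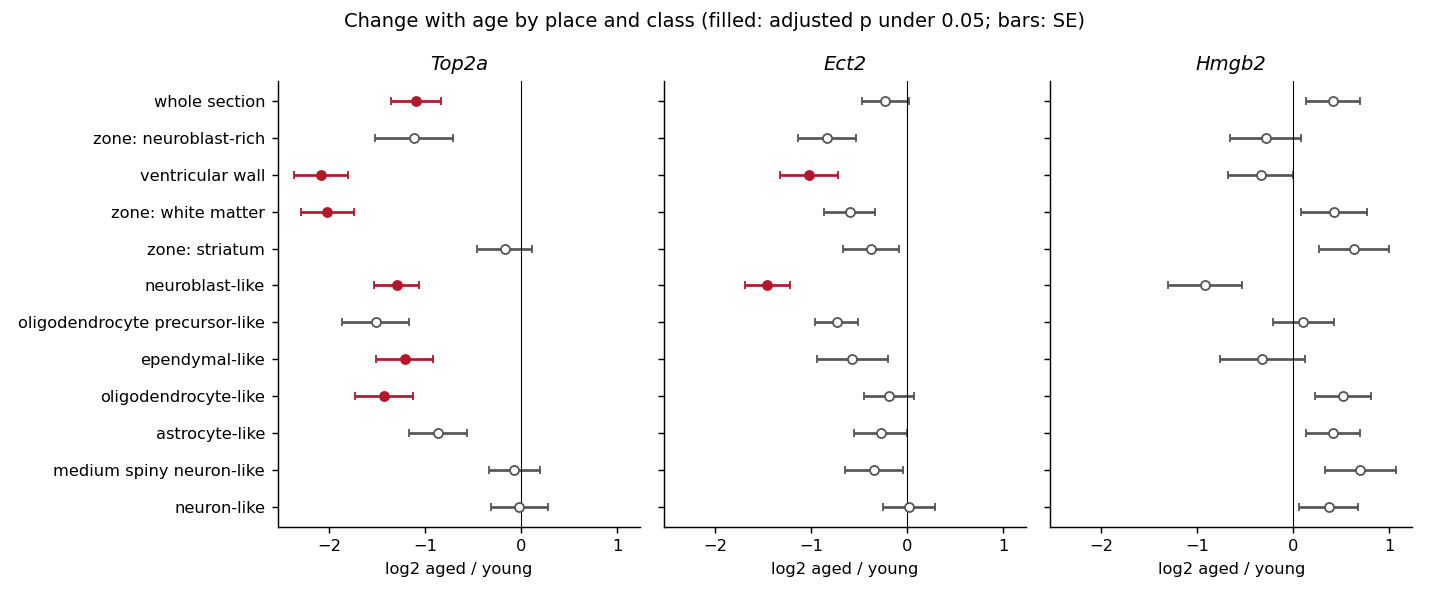
Log2 change from young to aged (edgeR, bars are the SE) of each gene over places and classes, with filled points where the adjusted p was under 0.05. Top2a lies furthest below 0 at the ventricular wall (-2.08) and in white matter (-2.02), Ect2 is filled at the wall and in neuroblast-like cells, and the whole-section Hmgb2 point (0.41) turns to -0.23 when cell volume is used for scaling.

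Whether a change with age differed between places was tested as an interaction with the section as a block. Between the neuroblast-rich zone and the rest, the log2 change of Top2a differed by -0.89 (SE 0.32, edgeR adjusted p = 0.324), that of Ect2 by -0.66 and that of Hmgb2 by -0.63 (both 0.572), where 0.522% of genes were called. Without aged 1 the Top2a difference passed (-1.48, edgeR adjusted p = 0.00166), and the other fits without a section gave 0.714 to 0.995. For the ventricular wall against the rest, the differences were -1.24, -0.83 and -0.67 (edgeR adjusted p = 0.297, 0.223 and 0.315), where 0.261% were called. None of these passed with all sections, and without young 1 all 3 genes passed at the wall (-1.72, -1.16 and -0.92, edgeR adjusted p = 4.2e-08, 3.4e-06 and 0.0356). For neuroblast-like against all other cells, Ect2 differed by -1.32 (SE 0.34, edgeR adjusted p = 0.0164) and Hmgb2 by -1.36 (SE 0.39, edgeR adjusted p = 0.0334), where 4.18% were called, and Top2a by -0.66 (edgeR adjusted p = 0.110). Both calls were lost without each section in turn, with edgeR adjusted p of 0.165 to 0.478 for Ect2 and 0.233 to 0.557 for Hmgb2. For oligodendrocyte precursor-like cells Top2a differed by -0.58 (edgeR adjusted p = 0.216), where 5.74% were called, and without aged 1 by -1.21 (edgeR adjusted p = 0.00124). For mural-like cells Hmgb2 differed by 0.70 (SE 0.24, edgeR adjusted p = 0.0714), where 4.44% were called.

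In the fits of age, each other cell cycle gene of the panel was called in fewer places and classes than Top2a, with no test of that difference. The list of 10 holds Ccnd2, Egfr, the histone variants H2afz and H2afv, the chromatin proteins Hmgb3 and Anp32b, the nuclear transport GTPase Ran, the centromere protein Cenpb, the polymerase Polk and the methyltransferase Dnmt3b. In the whole section 0 of 10 passed (edgeR, 0 also at an unadjusted p under 0.05), with a median log2 change of -0.07 beside -0.0017 over all genes. At the ventricular wall Ccnd2 fell, from 80.0 and 117 per 10000 in the young to 38.4 and 40.3 in the aged sections (log2 change -1.35, edgeR adjusted p = 2e-07), and the other 9 did not pass. The list's median was -0.59 there beside 0.0036 over all genes. In neuroblast-like cells Anp32b fell by 1.37 (edgeR adjusted p = 0.0234), the other 9 did not pass, and all 10 estimates were below 0 (median -0.53 beside -0.011). Egfr changed by -0.11 there. In ependymal-like cells Ccnd2 fell from 127 and 147 to 50.4 and 66.6 (log2 change -1.26, edgeR adjusted p = 0.000675) as 1 of 10. In the interactions Anp32b (-1.23) and H2afv (-1.05) passed for neuroblast-like against all other cells. Ccnd2 passed for oligodendrocyte precursor-like (0.34) and mural-like cells (0.56).

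The cell cycle inhibitors Cdkn1a, Cdkn1c, Cdkn2a and Cdkn2b gave no call in the whole section, the neuroblast-rich zone, the ventricular wall or any class tested by edgeR. In neuroblast-like and ependymal-like cells 2 of the 4 were abundant enough to be tested. An unadjusted p under 0.05 was found for 1 of the 4 in the whole section, in astrocyte-like and in microglia-like cells. Their median log2 changes were 0.09 in the whole section and 0.10 at the wall.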

How the data were processed

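MERFISH data of 4 sections were used, 2 per age, grouped by title and age label. For the young sections, the names held in the data are numbered unlike the titles, and the titles were followed. The authors imaged 383 genes with a custom probe library (Vizgen), used MERLIN for decoding, and then outlined the cells. The deposited count is a whole number of decoded transcripts per gene and cell, without normalization. The deposited cell volume is an imaging signal in µm³. A mean count per gene and section by the authors served only to check the reading.

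Cells with at least 10 detected genes and 50 µm³ were kept, as in the study's methods. They were clustered (15 principal components, 20 nearest neighbours, Louvain, resolution 1), and clusters were named from marker lists. The cluster highest in neuroblast markers was clustered again (resolution 0.5), the neuroblast-like class was tested with a minimum of 100 cells in place of 200, and the ventricular wall, the precursors outside the zone and 4 further interactions were added, all chosen after seeing the data. Each section gave 1 sum of counts per gene and set of cells. The test of age was that of edgeR 4.0.16 (TMM, filterByExpr, quasi-likelihood test, Benjamini-Hochberg, threshold 0.05) in R 4.3.3. DESeq2 1.42.0, limma 3.58.1 (log2 CPM, prior count 2), total counts, cell volume as library size, no filter, the replicate number as a block, left-out sections, other zone thresholds, no mixed cells and resolution 0.08 were alternatives.

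Members and lists were chosen with earlier results of these data known. Named were the 3 genes, the 10 cell cycle genes, the 4 inhibitors, the 5 genes most correlated with each member over clusters (log2 of the level plus 0.1) and the 10 genes with the largest ratio in Top2a-high cells. On simulated counts with 1 dispersion for all genes, edgeR recovered 93% of 2-fold and 100% of 4-fold changes in the whole section. It recovered 66.7% and 98% in the neuroblast-rich zone, and 54.3% and 95.1% in neuroblast-like cells. These shares are of the changed genes left by the filter. In neuroblast-like cells that was 81 of 100 per fold, of which 44 and 77 were recovered. Of the unchanged genes, 6, 2 and 2 were called. Replicate numbers did not pair the sections: deviations of sections with the same number correlated at -0.27 over the whole section and 0.055 in the neuroblast-rich zone. Gene positions are from GENCODE (GRCm38) and promoters from RefSeq, where all 3 gene names were found. The Hmgb2 window does not adjoin the GENCODE gene, since it ends at 57511842 and the gene starts at 57511907.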

Additional observations from a re-analysis of the deposited data

Results flagged for a closer look

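The change of Ect2 with age in neuroblast-like cells differed from its change in all other cells by -1.32 on the log2 scale (SE 0.34, edgeR interaction, adjusted p = 0.0164). That of Hmgb2 differed by -1.36 (SE 0.39, edgeR interaction, adjusted p = 0.0334). Both stood out because the difference itself passed the test, which was added after seeing the data. Both calls were lost without each section in turn, when the difference ranged from -1.81 to -0.78 for Ect2 (edgeR adjusted p = 0.165 to 0.478) and from -1.41 to -1.30 for Hmgb2 (0.233 to 0.557), in fits with 1 residual degree of freedom. Without aged 1, which had the highest Hmgb2 level in 8 of the 10 named classes, the Hmgb2 difference was -1.30. Within neuroblast-like cells alone Hmgb2 did not pass (edgeR adjusted p = 0.350). Levels in neuroblast-like cells were 39.1, 37.6, 16.8 and 12.5 per 10000 for Ect2 and 11.7, 12.3, 8.93 and 4.65 for Hmgb2. The aged sections held 148 and 182 cells of this class.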

How the results depend on the processing

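Under the alternatives, the log2 change of Top2a was below 0 in the whole section, the neuroblast-rich zone, white matter and the ventricular wall. The same held in neuroblast-like, oligodendrocyte precursor-like, oligodendrocyte-like, ependymal-like and astrocyte-like cells. Its sign under the alternatives in the remaining classes and zones is not given here. The exceptions below concern the side of the threshold on which Top2a fell, or the other genes. In the whole section Top2a was no longer called with total counts (-1.14), with cell volume as library size (-1.70) and with a replicate block (-1.11), and without a section it ranged from -1.33 to -0.91. Without a section Ect2 ranged from -0.58 to 0.029 and Hmgb2 from -0.20 to 0.83 over the whole section. Volume scaling shifted the median of all genes by -0.57 in the whole section and -0.52 in the neuroblast-rich zone. With it Hmgb2 turned to -0.23 in the whole section and in white matter and to -0.37 in oligodendrocyte precursor-like cells, and Top2a was called in the neuroblast-rich zone (-1.73) and in oligodendrocyte precursor-like cells (-2.05). Left-out sections gave -1.99 to -0.56 for Top2a in the neuroblast-rich zone, -0.19 to 0.84 for Hmgb2 in white matter and -0.37 to 0.50 in oligodendrocyte precursor-like cells. They gave -1.47 to -1.14 for Top2a and -1.64 to -1.28 for Ect2 in neuroblast-like cells, where limma (-1.33 and -1.47) called neither. Top2a ranged from -2.45 to -0.91 in oligodendrocyte precursor-like, -1.78 to -1.10 in oligodendrocyte-like and -1.79 to -0.86 in ependymal-like cells. At the ventricular wall Top2a ranged from -2.48 to -1.78, Ect2 from -1.31 to -0.79 and Hmgb2 from -0.63 to 0.022. Without a section, the difference in change between the neuroblast-rich zone and the rest ranged from -1.48 to -0.31 for Top2a.

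limma (-1.67) and the replicate block (-1.66) called Top2a in oligodendrocyte precursor-like cells. In oligodendrocyte-like cells it was lost with total counts (-1.47), with the replicate block (-1.41) and without mixed cells (-1.11). The replicate block also ended the call of Ect2 at the wall (-1.05) and of Hmgb2 in mural-like cells (1.08), changed no other call of the 3 genes, and is no pairing by design. The crossed pairing, added after seeing the data, called 6 genes in the whole section and 1 in the neuroblast-rich zone. Genes called in the whole section numbered 5, 1 with total counts, 0 with volume scaling and 0 to 1 without a section. In the neuroblast-rich zone they numbered 1, 4 with volume scaling, 0 to 35 without a section and 0 with limma, the replicate block, a 20% threshold or no mixed cells. Classes in which Top2a passed numbered 1 with total counts, 4 with volume scaling and 1 to 3 without a section. Ect2 passed in 1 class at resolution 0.08. Hmgb2 passed in 0 classes with DESeq2, volume scaling, the replicate block, no mixed cells, resolution 0.08 or any section left out. At resolution 0.08 no neuroblast-, ependymal- or oligodendrocyte precursor-like class was parted, so these gave no value. The causes were not tested. Neuroblast-like cells held 136 and 152 Top2a transcripts in the aged sections, ependymal-like cells 27 and 80 and mural-like cells 12 and 10, which limits the precision there.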

Other observations

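Within oligodendrocyte precursor-like cells, the genes with the largest ratio between Top2a-high and other cells after Ect2 (mean log2 ratio 5.16 ± 0.37, SD, n = 4 sections) and Hmgb2 (3.21 ± 0.23) were named after their values were seen. Cdkn1a, which encodes the cell cycle inhibitor p21, was the third (2.67 ± 0.72). It was at 13.5, 12.9, 31.5 and 28.6 per 10000 in the 44, 44, 14 and 7 Top2a-high cells and at 3.06, 3.15, 2.82 and 3.16 in the other precursors. H2afz (2.12 ± 0.29) and H2afv (2.12 ± 0.24) followed. No test was run, since the cells were chosen by their Top2a count.

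Top2a-high oligodendrocyte precursor-like cells had the summed mature oligodendrocyte markers at 485, 486, 245 and 315 per 10000, against 243, 256, 215 and 192 in the other precursors. Mixed cells were 93.2%, 90.9%, 92.9% and 85.7% of these Top2a-high cells and 88.3%, 84.6%, 81.7% and 87.4% of the other precursors. The source of these markers was not tested.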
